A study of Homo sapiens with 8 samples.

Results

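The expression of 10 genes of calpains and focal adhesion proteins was examined in human neuroblastoma cells: the calpain subunits CAPN1, CAPN2 and CAPNS1, their inhibitor CAST, and the adhesion proteins PTK2, PXN, VCL, TLN1, ZYX and VASP. All probes that the array table assigns to these gene symbols were taken, 21 of 47322 probes, which belong to 10 of the 31426 symbols in the table. Of the 21 probes, 16 were detected on all 8 arrays (detection p under 0.05), and every gene had at least 1 of these. The remaining 5 probes (2 of CAST and 1 each of PTK2, VCL and VASP) were detected on 0 to 5 arrays.

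Calpains are calcium-dependent cysteine proteases of the cytosol that cut their substrates at a limited number of sites. CAPN1 (mu-calpain) and CAPN2 (m-calpain) encode catalytic subunits that pair with the common small subunit CAPNS1, and calpastatin, the product of CAST, inhibits both. Focal adhesions couple integrins to actin, and talin, vinculin, paxillin and the kinase FAK are located there, several of them being calpain substrates. TRPM7, a cation channel fused to a kinase, is known to act on cell adhesion through m-calpain, which is why transcripts of this machinery were examined in cells with a TRPM7 shRNA.

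The study used SH-SY5Y cells, a neuroblastic line, and SH-EP2 cells, an epithelial-like line, both subclones of the SK-N-SH line. Per the paper, SH-EP2 cells were grown in DMEM, and SH-SY5Y cells in DMEM/F12 with added non-essential amino acids and L-glutamine. Each was transduced by lentivirus with an shRNA against TRPM7 or with a scrambled shRNA as control, giving 4 groups (SH-SY5Y control, SH-SY5Y TRPM7 shRNA, SH-EP2 control and SH-EP2 TRPM7 shRNA) of 2 Illumina HumanHT-12 v4 arrays each. Control cells therefore also carried a lentiviral shRNA, each line stands for 1 clone, and 1 TRPM7 shRNA was used on the arrays. Apart from the arrays, the paper used another TRPM7 shRNA in SH-EP2 cells and measured TRPM7 mRNA by quantitative PCR. The labels number the replicates but do not say that they were separate cultures, so that p-values measure the spread between these arrays, which may be technical.

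Median bead signals lay between 104.7 and 119.9, and 19331 to 20904 probes were detected per array. In SH-SY5Y the median was lower on the control arrays (111.5 and 104.7) than on the TRPM7 shRNA arrays (116.8 and 117.0). The background means were lower too (103.7 and 98.3 against 110.0 and 110.3). Before normalization, signal level therefore went with the shRNA in SH-SY5Y. The single TRPM7 probe was detected on 0 of 8 arrays (detection p 0.0753 to 0.201), and these arrays therefore give no measure of the knockdown. The lines were checked against 12 noradrenergic and 12 mesenchymal marker genes. In SH-SY5Y cells 11 noradrenergic markers were detected on every array, with TH, the enzyme that opens catecholamine synthesis, undetected throughout, whereas SH-EP2 arrays detected 3 to 5 of them and neither DBH nor CHGA. All 12 mesenchymal markers were detected on the SH-EP2 arrays and 8 on each SH-SY5Y array, where FN1, PRRX1 and WWTR1 were undetected.

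Promoter sequences of CAPN2, VCL and ZYX are given as examples of a calpain, an adhesion core protein and an adhesion adaptor whose genes were higher in SH-EP2 control cells. Each line below holds the 250 bases before a RefSeq start (GRCh38.p14, plus strand), 5′ to 3′. Capitals mark matches on either strand to the motifs searched. For CAPN2 the start used was 1 of 2.
CAPN2 chr1:223701347-223701596: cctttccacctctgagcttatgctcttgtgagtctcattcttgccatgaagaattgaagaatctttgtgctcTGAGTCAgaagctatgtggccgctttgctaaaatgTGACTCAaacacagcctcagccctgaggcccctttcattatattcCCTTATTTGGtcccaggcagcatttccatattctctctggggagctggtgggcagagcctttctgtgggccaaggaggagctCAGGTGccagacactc
VCL chr10:73997866-73998115: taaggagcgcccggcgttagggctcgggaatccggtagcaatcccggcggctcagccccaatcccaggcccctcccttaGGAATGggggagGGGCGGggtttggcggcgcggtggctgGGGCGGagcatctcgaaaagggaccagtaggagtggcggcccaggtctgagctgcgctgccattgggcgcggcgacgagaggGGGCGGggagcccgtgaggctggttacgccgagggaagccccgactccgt
ZYX chr7:143381095-143381344: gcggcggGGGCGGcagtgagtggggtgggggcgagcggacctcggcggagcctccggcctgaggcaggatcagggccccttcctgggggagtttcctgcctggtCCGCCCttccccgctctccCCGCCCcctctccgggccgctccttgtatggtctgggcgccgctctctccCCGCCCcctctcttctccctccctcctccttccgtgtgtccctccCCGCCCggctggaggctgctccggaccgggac

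The motifs were a CArG box (the site of serum response factor), the AP-1 motif TGANTCA, the TEAD motif GGAATG, the SNAI E-box CAGGTG and the GC box GGGCGG, with their reverse complements. RefSeq windows of 250 bases before to 50 bases after a start were found for 9 of the 10 genes, 18 windows in all, and PTK2 is named only. A CArG box was present in 1 of the 18 windows (5.56%), 1 of the 2 of CAPN2, against 1.29% of all 35116 windows. AP-1 motifs were present in 4 (22.2%) against 7.71%, TEAD motifs in 4 against 14.0%, SNAI E-boxes in 4 against 20.6%, and GC boxes in 12 (66.7%) against 45.0%. The CAPN2 sequence shown held a CArG box, both AP-1 motifs of this window and an E-box but no GC box. The other CAPN2 window held 1 AP-1 motif and none of the other motifs. The VCL sequence held 3 GC boxes and 1 TEAD motif, and the ZYX sequence held 5 GC boxes and none of the other motifs. A single pair of matches of different motifs overlapped, in a PXN window. These matches describe the sequence and not binding.

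Most of these genes differed between the cell lines. In control cells, 14 of the 21 probes passed the test between SH-EP2 and SH-SY5Y (limma, adjusted p under 0.05 over all probes), 13 of them higher and 1 lower in SH-EP2, where 26.2% of all probes passed, 12.2% higher and 14.0% lower. Among the probes detected on all 8 arrays the corresponding shares were 60.1%, 27.4% and 32.7%. With each gene given by its brightest probe, 8 genes were higher in SH-EP2, PTK2 was lower and PXN did not pass. The median log2 difference of the 10 genes was 1.22, against -0.02 for all probes. RNA was measured in bulk, where fewer cells of a type and less RNA per cell cannot be told apart. Among the markers, 11 of 12 mesenchymal genes were higher and 11 of 12 noradrenergic genes were lower in SH-EP2 control cells. Cell line, cell type and culture medium cannot be told apart here.

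**Figure D1:**
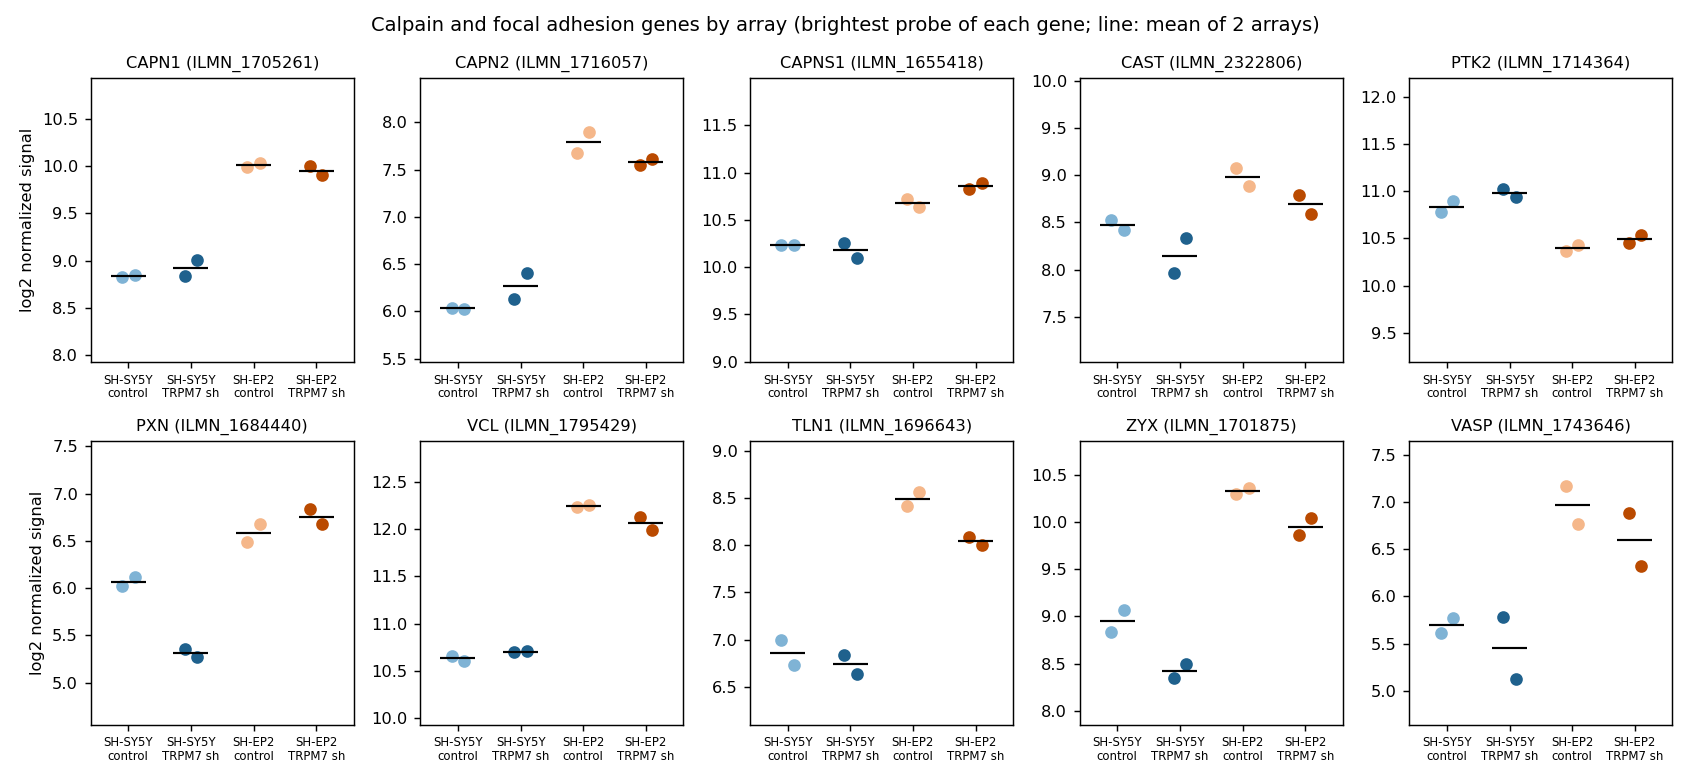
Log2 normalized signal (vertical axis) of the brightest probe of each of the 10 genes on the 8 arrays, by group (horizontal axis; TRPM7 sh, TRPM7 shRNA). Points are arrays and lines are means of 2 arrays, and every vertical axis spans at least 3 log2 units. All SH-EP2 arrays lie above all SH-SY5Y arrays for CAPN1, CAPN2, CAPNS1, CAST, PXN, VCL, TLN1, ZYX and VASP, and below them for PTK2.

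Among the calpain subunits, CAPN2 differed most. Its probe (ILMN_1716057) read 6.04 and 6.03 on the SH-SY5Y control arrays and 7.67 and 7.90 on the SH-EP2 control arrays, in log2 normalized signal, the scale of all levels given here. The groups did not overlap, and the signal was 3.38-fold higher in SH-EP2 (log2 difference 1.76, SE 0.17, adjusted p = 3.98e-08). CAPN1 (ILMN_1705261) read 8.82 and 8.85 in SH-SY5Y and 9.99 and 10.03 in SH-EP2 control cells, a 2.26-fold difference (log2 1.18, SE 0.10, adjusted p = 7.86e-09). Both catalytic subunits were thus higher on each SH-EP2 array. The small subunit CAPNS1 differed less, by log2 0.44 (SE 0.09, adjusted p = 0.000363) in its brighter probe (ILMN_1655418) and by 0.58 (SE 0.11, adjusted p = 0.000451) in the other (ILMN_2393254).

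For the calpain inhibitor CAST, the size of the difference varied between probes. The brightest probe (ILMN_2322806) was 1.42-fold higher in SH-EP2 control cells (log2 0.51, SE 0.13, adjusted p = 0.00585). This call was lost without SH-EP2 control replicate 1 (log2 0.40, adjusted p = 0.101) and without the intensity trend, as were both CAPNS1 calls without that trend. A larger difference was found with ILMN_1717234, which read 6.86 and 6.46 in SH-SY5Y and 8.82 and 8.65 in SH-EP2 control cells (log2 2.08, SE 0.15, adjusted p = 1.13e-09). ILMN_1672947 read 7.08 and 6.97 against 7.03 and 7.29, with overlapping arrays and a log2 difference of 0.14 (95% interval -0.28 to 0.55). ILMN_1783627 was higher in SH-EP2 control cells, with separate arrays (log2 1.61, SE 0.29, adjusted p = 0.000147). The table gives no probe sequences, so that the CAST transcripts read by each probe are not stated here.

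Among the adhesion proteins, vinculin (VCL), which links talin to actin, read 10.66 and 10.61 in SH-SY5Y and 12.24 and 12.25 in SH-EP2 control cells with its brightest probe (ILMN_1795429). This was a 3.06-fold difference (log2 1.61, SE 0.07, adjusted p = 6.27e-13), and the second detected probe (ILMN_2413527) differed by log2 2.97 (SE 0.21, adjusted p = 4.59e-10). Talin 1 (TLN1, ILMN_1696643), which binds and activates integrins, read 6.99 and 6.73 against 8.41 and 8.56 (log2 1.63, SE 0.15, adjusted p = 2.22e-08). Zyxin (ZYX), a LIM protein of mature adhesions and stress fibres, was higher in SH-EP2 with both probes, by log2 1.38 (SE 0.11, adjusted p = 3.10e-09) for ILMN_1701875 and 2.01 (SE 0.11, adjusted p = 9.40e-12) for ILMN_2371169. VASP (ILMN_1743646), which promotes elongation of actin filaments, was 2.41-fold higher (log2 1.27, SE 0.24, adjusted p = 0.000332).

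The kinase FAK, encoded by PTK2, was the exception. PTK2 (ILMN_1714364) read 10.77 and 10.89 in SH-SY5Y and 10.36 and 10.42 in SH-EP2 control cells. The arrays did not overlap, and PTK2 was 1.35-fold lower in SH-EP2 (log2 -0.44, SE 0.08, adjusted p = 0.000284). The call was lost with the mean over the PTK2 probes (log2 -0.21, adjusted p = 0.482) and without the intensity trend of the variance (adjusted p = 0.105). Paxillin (PXN, ILMN_1684440), an adaptor that binds FAK and vinculin, read 6.02 and 6.11 against 6.49 and 6.68, which did not overlap but did not pass the test (log2 0.52, SE 0.19, adjusted p = 0.0545).

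**Figure D2:**
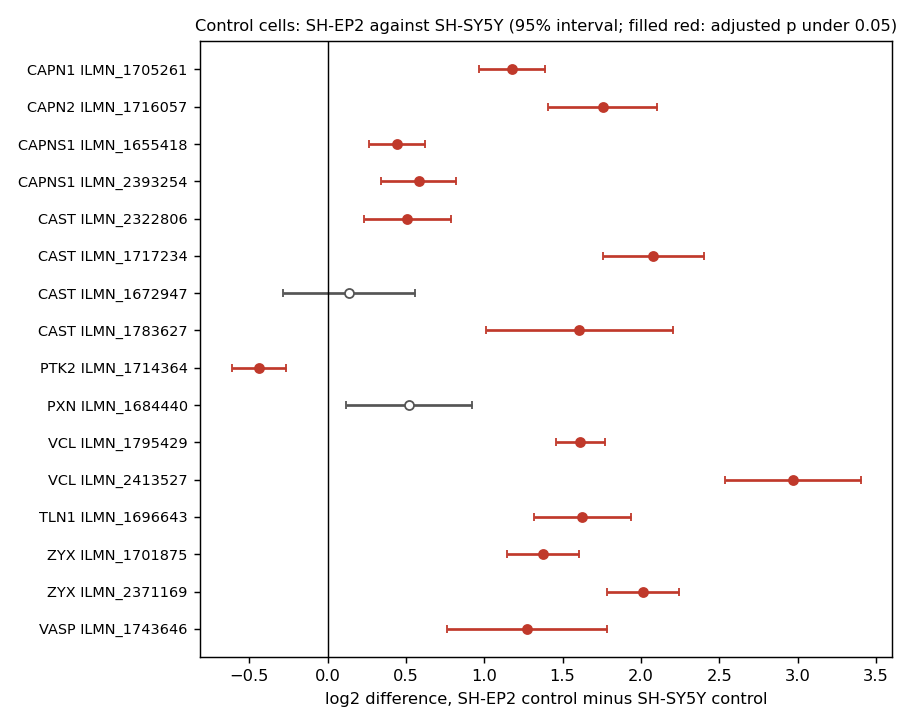
Log2 difference between SH-EP2 and SH-SY5Y control cells (horizontal axis) for the 16 probes detected on all 8 arrays (vertical axis), with 95% intervals from limma on 2 arrays per group. Filled red points passed an adjusted p under 0.05, which 13 probes did above 0 and the PTK2 probe did below 0.

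In SH-SY5Y cells, TRPM7 shRNA lowered probes of 3 of the 10 genes. Both ZYX probes, the PXN probe and 2 of the 6 CAST probes were lower in TRPM7 shRNA cells, and no probe was higher. These 5 of 21 probes compare with 2.11% of all probes called in either direction and 1.30% called lower, or 5.63% and 3.73% of the probes detected on all 8 arrays. By the brightest probe, ZYX and PXN passed the test, and the median log2 difference of the 10 genes was -0.09, against 0.00 for all probes. Before adjustment 6 probes had a p under 0.05, the brightest CAST probe being the one added.

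ZYX fell in both probes. ILMN_2371169 read 8.02 and 8.01 in control and 7.45 and 7.44 in TRPM7 shRNA cells, and ILMN_1701875 read 8.83 and 9.07 against 8.35 and 8.50. After normalization the groups were separate in each probe, with shRNA arrays below control arrays. The uncorrected bead signals of ILMN_2371169 overlapped (393.2 and 308.0 in control, 297.5 and 321.4 with TRPM7 shRNA), and those of ILMN_1701875 did not. The decreases were 1.49-fold (log2 -0.57, SE 0.11, adjusted p = 0.00552) and 1.44-fold (log2 -0.53, SE 0.11, adjusted p = 0.0102). PXN read 6.02 and 6.11 in control and 5.36 and 5.27 in TRPM7 shRNA cells, again without overlap, a 1.68-fold decrease (log2 -0.75, SE 0.19, adjusted p = 0.0462). Its uncorrected bead signals overlapped (181.8 and 159.1 against 160.2 and 162.8). The PXN call was close to the threshold, and it was lost in 15 of 17 other ways of processing the arrays, including the removal of any 1 of the 8 arrays (log2 -0.80 to -0.70, adjusted p = 0.0668 to 0.198). For ZYX, both calls were lost with median scaling (log2 -0.39 and -0.40) and without the intensity trend. The call of ILMN_2371169 was also lost with SH-SY5Y fitted alone (adjusted p = 0.056), and that of ILMN_1701875 without control replicate 2 (log2 -0.41, adjusted p = 0.14) or TRPM7 shRNA replicate 1 (-0.46, adjusted p = 0.108).

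Of the CAST probes, ILMN_1717234 read 6.86 and 6.46 in control and 5.86 and 6.04 in TRPM7 shRNA cells, a 1.63-fold decrease (log2 -0.71, SE 0.15, adjusted p = 0.0155). ILMN_1783627 read 5.67 and 4.92 against 3.07 and 3.42, with a fitted log2 difference of -2.05 (SE 0.29, adjusted p = 0.000204). Both shRNA arrays lay below both control arrays for either probe in normalized signal. The uncorrected bead signals of the first probe overlapped (237.7 and 173.6 in control, 178.0 and 194.0 with TRPM7 shRNA). The first probe no longer passed without control replicate 1 (log2 -0.51, adjusted p = 0.149) or TRPM7 shRNA replicate 1 (-0.62, adjusted p = 0.13), with median scaling (-0.53, adjusted p = 0.206), with SH-SY5Y fitted alone (-0.70, adjusted p = 0.121), without background correction (-0.29, adjusted p = 0.0518) or without the intensity trend (adjusted p = 0.342). The size of the second difference depended on the background correction, because the probe was dim in SH-SY5Y cells. Its uncorrected bead signals were 166.6 and 127.6 in control and 120.9 and 125.9 in TRPM7 shRNA cells, with background means of 98.3 to 110.3 on these arrays, and without background correction the log2 difference was -0.35 (adjusted p = 0.0136). The other detected CAST probes did not pass, with log2 differences of -0.32 for the brightest (ILMN_2322806, adjusted p = 0.325) and -0.35 for ILMN_1672947 (adjusted p = 0.562), whose arrays overlapped.

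**Figure D3:**
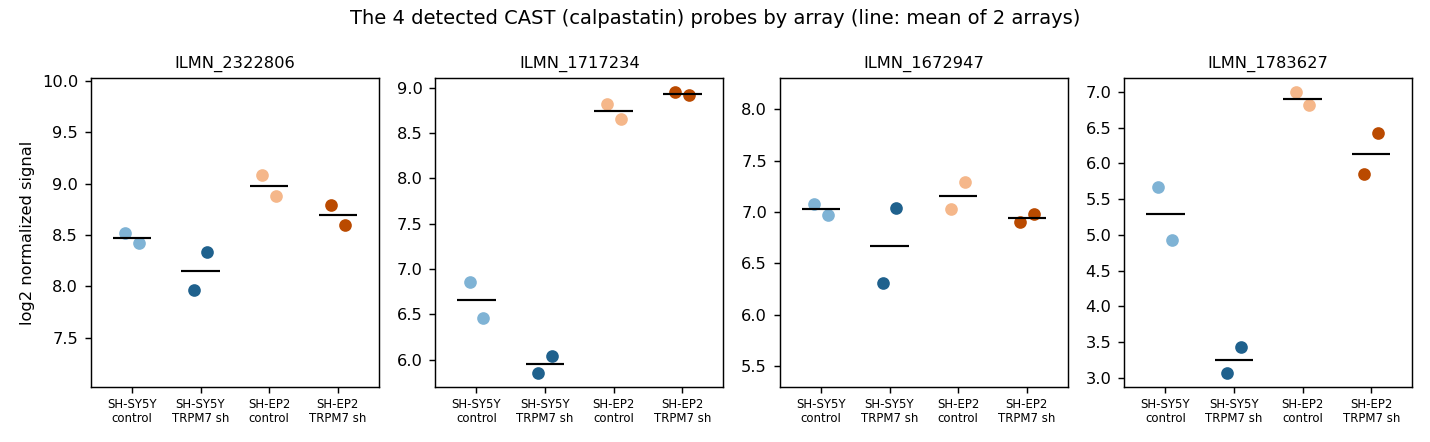
Log2 normalized signal (vertical axis) of the 4 CAST probes detected on all 8 arrays, by group (horizontal axis; TRPM7 sh, TRPM7 shRNA), with points for arrays and lines for means of 2 arrays. The drop with TRPM7 shRNA in SH-SY5Y passed the test in ILMN_1717234 (-0.71) and ILMN_1783627 (-2.05), whereas ILMN_1672947 had overlapping arrays. Each panel has its own vertical axis, and levels are not compared between probes.

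The calpain subunits did not pass the test in SH-SY5Y. CAPN2, m-calpain, read 6.04 and 6.03 in control and 6.13 and 6.40 in TRPM7 shRNA cells (log2 0.23, 95% interval -0.11 to 0.58, adjusted p = 0.673). CAPN1 had a log2 difference of 0.08 (95% interval -0.12 to 0.29) and CAPNS1 of -0.06 (-0.24 to 0.12). Each interval includes 0, and for CAPN2 it reaches changes of the size found for ZYX in the opposite direction. The adhesion genes PTK2 (0.14, 95% interval -0.03 to 0.32), VCL (0.07, -0.08 to 0.23), TLN1 (-0.13, -0.43 to 0.18) and VASP (-0.24, -0.75 to 0.27) also did not pass.

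In SH-EP2 cells, 0 of the 21 probes passed the test by limma, where 3.02% of all probes passed (7.79% of those detected on all 8 arrays). Before adjustment 8 probes had a p under 0.05. The number passing after adjustment was 0 to 5 under other background corrections, filters and fits. The median log2 difference of the 10 genes by their brightest probes was -0.19, against 0.01 for all probes. ZYX came closest to the threshold. Its probes read 10.29 and 10.36 in control and 9.86 and 10.04 in TRPM7 shRNA cells (ILMN_1701875, log2 -0.38, SE 0.11, adjusted p = 0.0739), and 10.13 and 9.93 against 9.64 and 9.66 (ILMN_2371169, log2 -0.38, SE 0.11, adjusted p = 0.0749). The shRNA arrays lay below the control arrays in both probes. Both ZYX probes passed with the neqc or normexp background corrections, without background correction, among probes detected on at least 2 arrays, and with SH-EP2 arrays normalized and fitted alone.

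TLN1 read 8.41 and 8.56 in SH-EP2 control and 8.08 and 8.0 in TRPM7 shRNA cells (log2 -0.45, SE 0.15, adjusted p = 0.135). VCL read 12.24 and 12.25 against 12.13 and 11.99 (ILMN_1795429, log2 -0.18, adjusted p = 0.264), and its second probe 8.04 and 7.72 against 7.40 and 7.31 (ILMN_2413527, log2 -0.52, adjusted p = 0.258). In these 3 probes the groups were separate, although none passed the test. The TLN1 probe and the second VCL probe passed with the normexp background correction, without background correction and with SH-EP2 alone. CAPN2 read 7.67 and 7.90 against 7.55 and 7.62 (log2 -0.20, 95% interval -0.55 to 0.14), with CAPN1 at -0.06 (-0.27 to 0.15). The CAPNS1 probes went opposite ways, with separate arrays in each. ILMN_1655418 was at 0.18 (0.00 to 0.36, adjusted p = 0.382) and ILMN_2393254 at -0.08 (-0.32 to 0.16, adjusted p = 0.866). PXN, lower in SH-SY5Y, read 6.49 and 6.68 in control and 6.84 and 6.67 in TRPM7 shRNA cells, with overlapping arrays (log2 0.17, 95% interval -0.23 to 0.58). PTK2 and VASP had log2 differences of 0.10 and -0.36, and neither passed.

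CAST did not pass in SH-EP2 either. Its brightest probe (ILMN_2322806) read 9.08 and 8.88 in control and 8.79 and 8.59 in TRPM7 shRNA cells (log2 -0.29, adjusted p = 0.365), and ILMN_1783627 read 6.99 and 6.82 against 5.85 and 6.43 (log2 -0.77, adjusted p = 0.211). The shRNA arrays lay below the control arrays in both probes. ILMN_1783627 passed with the normexp background correction, without background correction and with SH-EP2 alone. The other detected CAST probes went opposite ways with separate arrays, ILMN_1717234 higher (log2 0.19) and ILMN_1672947 lower (-0.22), and neither passed.

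**Figure D4:**
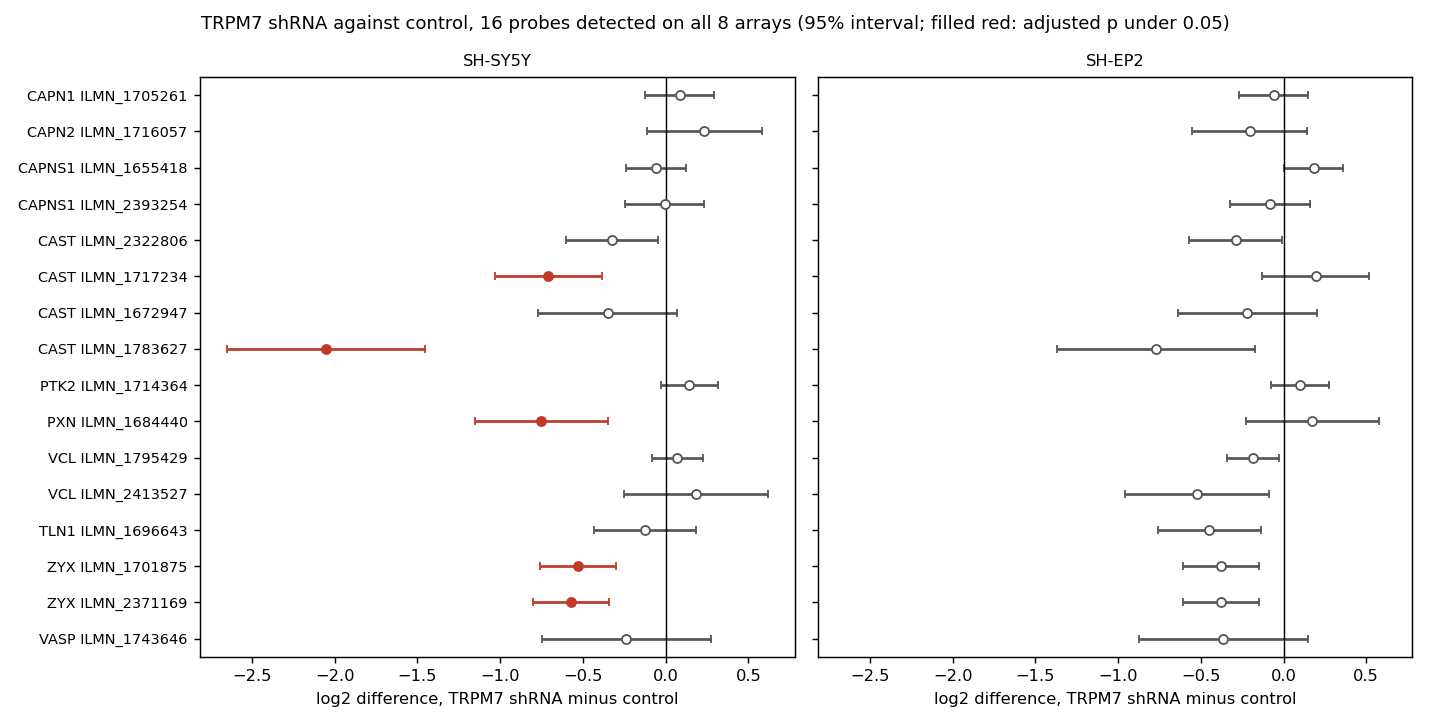
Log2 difference between TRPM7 shRNA and control cells (horizontal axis) in SH-SY5Y (left) and SH-EP2 (right) for the 16 probes detected on all 8 arrays (vertical axis), with 95% intervals from limma on 2 arrays per group. Filled red points passed an adjusted p under 0.05, which 5 probes did in SH-SY5Y, all lower, and 0 did in SH-EP2. Both ZYX probes lie below 0 in both lines.

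Whether the effect of the shRNA differed between the lines was tested as an interaction. A single probe of the 21 passed, where 1.40% of all probes did (3.45% of those detected on all 8 arrays), with 5 at an unadjusted p under 0.05. This was CAST ILMN_1717234, whose log2 difference was -0.71 in SH-SY5Y and 0.19 in SH-EP2, a difference of effects of 0.90 (95% interval 0.45 to 1.36, adjusted p = 0.0436). On the SH-EP2 arrays this probe read 8.82 and 8.65 in control and 8.95 and 8.92 in TRPM7 shRNA cells, and the increase did not pass (adjusted p = 0.70). The interaction of CAST was lost with median scaling, without the intensity trend, with a replicate block and on leaving out 6 of the 8 arrays in turn (0.70 to 0.99, adjusted p = 0.0949 to 0.23). For PXN, the effects of -0.75 and 0.17 differed by 0.93, which did not pass (95% interval 0.36 to 1.49, adjusted p = 0.126). For ZYX the effects differed by 0.15 (95% interval -0.17 to 0.47) and 0.19 (-0.13 to 0.52), and the decrease called in SH-SY5Y alone was not shown to differ from that in SH-EP2.

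Some cell type markers also moved with the shRNA. The summed level of the 12 mesenchymal markers was 13.85 to 13.96 in SH-SY5Y control and 13.64 to 13.68 in TRPM7 shRNA cells, and 15.67 to 15.69 and 15.51 to 15.52 in SH-EP2, on the log2 scale. In SH-SY5Y this sum largely follows VIM, with a mean of 13.68 in control cells, where the next brightest, SPARC, had 10.08. VIM had a mean of 13.38 in SH-SY5Y TRPM7 shRNA cells. In SH-EP2 control cells it was lower (13.48) than in SH-SY5Y control cells. The median log2 difference of the 12 genes had the opposite sign to the sum, 0.08 in SH-SY5Y and 0.04 in SH-EP2. By the test, 2 of the 12 were lower in SH-SY5Y, and 4 lower and 1 higher in SH-EP2. The 12 noradrenergic markers summed to 15.11 to 15.15 in SH-SY5Y control and 14.59 to 14.69 in TRPM7 shRNA cells, with 3 lower (median log2 difference -0.26). In SH-EP2, where an array detected 3 to 5 of the 12, they summed to 8.45 to 8.62 over all arrays, with 2 lower (median 0.09). The part of these shifts in the decreases of ZYX, PXN and CAST was not tested.

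The wider machinery was described with 73 further genes in 5 lists, each gene by its brightest probe. The lists, like the genes above, were chosen with earlier results of these data known. Counts set beside the shares over all probes are therefore descriptions and not tests of the lists. Of these genes 63 were detected on at least 1 array. In SH-SY5Y, 2 were higher and 4 lower with TRPM7 shRNA (median log2 difference -0.09), and in SH-EP2 0 were higher and 12 lower (median -0.17). Over all probes 2.11% passed in SH-SY5Y and 3.02% in SH-EP2, or 5.63% and 7.79% of those detected on all 8 arrays. Between control cells, 34 of the 73 were higher and 10 lower in SH-EP2 (median 0.37), genes detected on no array being counted too. Of all probes 26.2% passed, 12.2% higher and 14.0% lower. Among probes detected on all 8 arrays 60.1% passed, 27.4% higher and 32.7% lower. The comparisons with the shRNA use the same control arrays as the comparison between lines.

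Other calpains (13 genes, 7 detected) gave 1 call in SH-SY5Y and 0 in SH-EP2. Over all probes 2.11% and 3.02% passed, or 5.63% and 7.79% of those detected on all 8 arrays. CAPN6, a calpain whose catalytic cysteine is lost, read 3.56 and 3.44 in SH-SY5Y control and 5.24 and 5.22 in TRPM7 shRNA cells (log2 1.73, SE 0.43, adjusted p = 0.0400). The shRNA arrays were clearly above the control arrays, but the probe was dim and the fitted difference was 0.29 at the lowest among the other ways of processing. In control cells CAPN15 was higher in SH-EP2 (log2 1.42, adjusted p = 0.0172).

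Among 16 adhesion kinases and adaptors, 0 passed in SH-SY5Y and 1 in SH-EP2, no more than the shares of probes detected on all 8 arrays (5.63% and 7.79%). ILK, the pseudokinase that ties integrins to parvins, read 11.96 and 12.06 in SH-EP2 control and 11.61 and 11.58 in TRPM7 shRNA cells (log2 -0.42, SE 0.07, adjusted p = 0.0021). The largest difference between control cells was in EFS, an adaptor of the p130Cas family, which was undetected in SH-EP2 control cells and at least 45.2-fold higher in SH-SY5Y. Its relatives BCAR1, encoding p130Cas itself, and NEDD9 went the other way, 3.15-fold and 2.71-fold higher in SH-EP2. A bound of this kind sets the brighter group's mean against the lowest detected signal of each array or, where that is brighter, the signal of the probe itself.

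Among 16 integrin activators and links, TNS3 (tensin 3) was lower in SH-SY5Y with TRPM7 shRNA (log2 -0.48, SE 0.10, adjusted p = 0.00787). FERMT2 (kindlin-2), which activates integrins together with talin, read 11.16 and 11.28 in SH-EP2 control and 10.55 and 10.41 in TRPM7 shRNA cells, without overlap (log2 -0.74, SE 0.09, adjusted p = 3.06e-05). LIMS2 (PINCH-2), a partner of ILK, read 7.0 and 7.0 against 4.47 and 4.88 in SH-EP2 (log2 -2.32, SE 0.41), and was undetected in SH-SY5Y. In control cells LIMS2, KANK1 and FERMT1 were at least 14.3-fold, 10.4-fold and 6.57-fold higher in SH-EP2, and the SH-SY5Y control arrays did not detect them. FERMT1 was detected on both SH-SY5Y TRPM7 shRNA arrays.

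Relatives of paxillin, zyxin and VASP (14 genes) held 6 of the 12 decreases in SH-EP2, where 7.79% of probes detected on all 8 arrays passed in either direction, and 1 in SH-SY5Y, where 5.63% did. CSRP1, a LIM protein that binds zyxin and alpha-actinin, fell in both lines. It read 7.94 and 8.21 in SH-SY5Y control against 7.56 and 7.52 in TRPM7 shRNA cells (log2 -0.54, SE 0.11, adjusted p = 0.0082), and 11.34 and 11.25 against 10.09 and 10.16 in SH-EP2 (log2 -1.17, SE 0.11, adjusted p = 1.36e-06). The SH-SY5Y call was lost in 4 of 17 other ways of processing, among them without control replicate 2 (log2 -0.40, adjusted p = 0.113). In SH-EP2 the zyxin relative LPP (log2 -0.71), the VASP relative ENAH (-0.72), the paxillin relative TGFB1I1 (-0.55) and the PDZ-LIM genes PDLIM5 (-1.14) and PDLIM7 (-0.74) were also lower. Between control cells the zyxin relatives TRIP6 (log2 6.06) and LPP (4.98) were higher in SH-EP2, as zyxin was, and SYNPO2 (-3.68) was lower.

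Among 14 vinculin partners and actin links, ACTN1, an alpha-actinin that crosslinks actin and binds vinculin and zyxin, fell in both lines. It read 9.32 and 9.17 in SH-SY5Y control against 8.82 and 8.87 in TRPM7 shRNA cells (log2 -0.40, SE 0.09, adjusted p = 0.0175), and 11.46 and 11.46 against 10.88 and 10.79 in SH-EP2 (log2 -0.62, SE 0.09, adjusted p = 0.00028). The SH-SY5Y call was lost in 5 of 17 other ways, among them without control replicate 1 (log2 -0.33, adjusted p = 0.112) or TRPM7 shRNA replicate 1 (-0.38, adjusted p = 0.105). In SH-SY5Y the Arp2/3 subunit ARPC2 was lower (log2 -0.40, adjusted p = 0.0014) and radixin (RDX) was higher (0.46, adjusted p = 0.0438). In SH-EP2 ACTN4 (log2 -0.54) and SORBS2 (-1.11), a binding partner of vinculin, were lower. Between control cells, MSN (log2 5.50), SORBS2 (5.26) and ACTN4 (3.56) were higher in SH-EP2. Of the genes named from these lists for a call with the shRNA, PDLIM5 lost it in 14, RDX in 9, and CAPN6 and ACTN4 each in 7 of 17 other ways of processing the arrays. TNS3 and ENAH lost it in 5, LIMS2 and TGFB1I1 in 4, and ILK, LPP and ARPC2 in 3. PDLIM7 and SORBS2 lost it in 2, with log2 differences of -0.30 (adjusted p = 0.623) and -0.43 (adjusted p = 0.602) for the mean over their probes. FERMT2, and CSRP1 and ACTN1 in SH-EP2, lost it without the intensity trend alone.

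**Figure D5:**
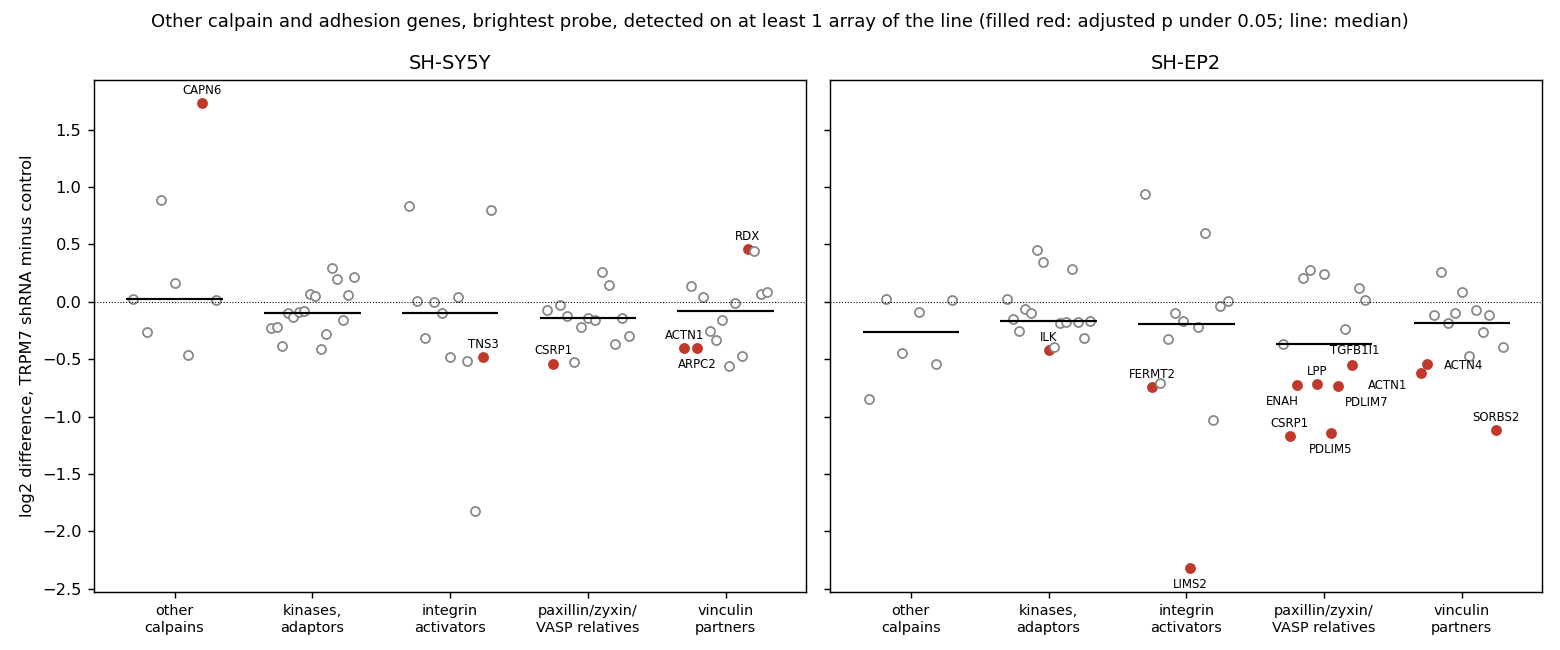
Log2 difference between TRPM7 shRNA and control cells (vertical axis) in SH-SY5Y (left, 61 genes) and SH-EP2 (right, 59 genes) for genes of the 5 lists detected on at least 1 array of the line (horizontal axis: list). Filled red points passed an adjusted p under 0.05 and are named, and lines are medians of the points shown. There are 2 red points above 0 and 4 below in SH-SY5Y, and 12 in SH-EP2, all below 0.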

How the data were processed

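The authors measured total RNA of 8 samples on Illumina HumanHT-12 v4 arrays and deposited a table of bead signal intensity per probe, on a linear scale and not normalized, with a detection p-value per probe and array. Per the labels, GenomeStudio 2011.1 was used. Groups were taken from the sample titles. From these signals the background was removed by the RMA model, followed by quantile normalization of the 8 arrays and a log2 transform, and all probes were kept. Groups were compared with limma 3.58.1 (statmod 1.5.0, R 4.3.3) in 1 fit of 4 groups with an intensity trend, with two-sided p-values adjusted by Benjamini-Hochberg for all 47322 probes and a threshold of 0.05. Intervals are at 95%. The members and lists were chosen with earlier results of these data known. Each gene was represented by the probe of highest mean signal. Other probes detected on all 8 arrays are given for some of the 10 genes, but not wherever they differ in sign or call. List genes are named if they passed with the shRNA or had 1 of the 3 largest differences of their list between control cells. All 10 symbols are current in RefSeq (GRCh38.p14), whose promoter table gave the sequences. The procedure was tested on simulated data with planted changes larger than those of ZYX and PXN with the shRNA. Changes of their size were not tried. Replicate numbers did not pair the arrays (correlation of replicate differences -0.00 in SH-EP2 and -0.11 in SH-SY5Y over 14577 probes). Alternatives were neqc (offset 16), normexp (offset 50) or no background correction, median scaling, a filter of detection on at least 2 arrays, no intensity trend, each line alone, a replicate block, the mean over a gene's probes and leaving out each array. The number of arrays limits the precision.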

Additional observations from a re-analysis of the deposited data

Results flagged for a closer look

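The effect of the TRPM7 shRNA differed between the lines by the interaction test for 1 of the 21 probes of the 10 genes, CAST ILMN_1717234, which is not the brightest CAST probe. By their brightest probes 0 of the 10 genes passed. In the wider lists 6 of 73 genes passed by their brightest probe, where 1.40% of all probes and 3.45% of those detected on all 8 arrays did. The log2 difference of effects, SH-EP2 minus SH-SY5Y, was 0.90 for CAST (ILMN_1717234, adjusted p = 0.0436). It was -0.47 for ILK (adjusted p = 0.0256), -0.75 for FERMT2 (adjusted p = 0.0018), -0.63 for CSRP1 (adjusted p = 0.0435), -0.99 for PDLIM7 (adjusted p = 0.00143) and -1.18 for SORBS2 (adjusted p = 0.0283), all by limma. CSRP1 was lower in both lines, by more in SH-EP2. The sixth gene, LIMS2, had a fitted difference of -2.55 (adjusted p = 0.0311), but it was undetected on all SH-SY5Y arrays, so that its effect there was not measured and this value does not show that the effects differ. The interaction of CAST was lost in 9 of 15 alternatives. Of 16 alternatives, those of ILK and CSRP1 were lost in 10, SORBS2 in 9, LIMS2 in 7, PDLIM7 in 2 and FERMT2 in 1.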

How the results depend on the processing

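The number of probes of the 10 genes called in SH-SY5Y, 5 in the comparison as reported, was 3 without background correction, 1 with median scaling (CAST ILMN_1783627), 0 without the intensity trend, 2 with each line alone, and 2 of 10 genes with the mean over probes (PXN and ZYX). Leaving out each array in turn gave 2 to 4, the lowest without SH-SY5Y TRPM7 shRNA replicate 1. In SH-EP2 the 0 calls became 2 with neqc, 5 with normexp, 5 without background correction, 2 among probes detected on at least 2 arrays, 5 with the line alone and 1 gene (ZYX) with the mean over probes, and 0 to 1 on leaving out an array. The interaction call of CAST became 0 with median scaling, without the intensity trend and with the mean over probes, and 0 to 1 on leaving out an array. Between control cells 14 calls became 10 without the intensity trend, 9 of 10 genes with the mean over probes, and 13 to 14 on leaving out an array. With a replicate block within each line the counts were 4, 0 and 0 for SH-SY5Y, SH-EP2 and the interaction, and no block could be fitted between the lines. A crossed pairing in SH-SY5Y, chosen after seeing the data, gave 5, 2 and 1. No single value changed direction while called, but 166 of 2056 alternative values lost and 41 gained a call.

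Over all probes the calls without the intensity trend were 64 in SH-SY5Y (999 as reported), 100 in SH-EP2 (1429) and 23 for the interaction (662). In SH-SY5Y leaving out TRPM7 shRNA replicate 1 gave 622, and leaving out control replicate 2 gave 634. SH-EP2 had 2587 with the line alone and 675 to 1596 on leaving out an array, below 800 without any 1 of its own 4 arrays. The interaction had 1153 with normexp, 1248 without background correction and 399 at the lowest on leaving out an array. With median scaling the 382 higher and 617 lower probes in SH-SY5Y became 553 and 284, with the median of all probes at 0.09. Probes near the background carry little information on expression.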
